A study of Bubalus bubalis with 6 samples.

Results

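Muscle cells lie in a connective tissue whose collagens fall into several families. Type VI collagen forms beaded microfilaments around muscle fibres, and each of its units joins the chains made by COL6A1 and COL6A2 with one more chain from COL6A3, COL6A5 or COL6A6. Faults in COL6A1, COL6A2 or COL6A3 cause Bethlem and Ullrich muscular dystrophies. COL12A1, COL14A1 and COL16A1 belong to the fibril-associated collagens, which sit on the surface of other collagen fibrils, COL15A1 makes a proteoglycan of the basement membrane zone of muscle and capillaries, and COL8A1 makes a network-forming collagen of vessel walls. These 10 genes were selected by symbol from the deposited gene table. Of the 10, 9 are listed by symbol among the 24616 genes of the table, all 9 reached the minimum of 10 counts over the 6 samples, and COL6A5 was not analysed here.

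The samples were buffalo (Bubalus bubalis) muscle stem cells (MuSCs), primary cells that the study digested out of fetal longissimus muscle. The 3 GM samples were proliferating cells in growth medium with fetal bovine serum, and the 3 DM samples were cells switched to differentiation medium with horse serum when nearly confluent. Medium, serum, time in culture and density changed together, so their parts in a difference cannot be told apart, and the labels do not say whether the samples are separate cultures or animals, so p-values measure the spread between these samples, which may be technical. Polyadenylated RNA was sequenced and reads were counted on genes, and totals ran between 36657735 and 40305237 per GM sample and between 35615864 and 38177614 per DM sample. Markers of myogenic cells were present in all samples, with DES (a muscle intermediate filament) at 1787 to 2411 CPM over all samples and PAX7 (a satellite cell factor) at 18.3 to 18.7 CPM in the GM group against 6.11 to 12.3 CPM in the DM group. Of all tested genes, 15.0% were called higher in DM samples and 10.3% lower, which is the baseline for each marker list here. Of the 9 myogenic markers tested, MYOG, MYH3, ACTC1 and CKM were called higher in DM samples, MYF5 was called lower and 4 were not called, PAX7 and DES among them. Their summed level ranged over 3437 to 4138 CPM for GM and 5600 to 8015 CPM for DM. CPM were computed with TMM library sizes. PTPRC (leukocytes) reached at most 0.055 CPM in any sample, PECAM1 (endothelium) 0.22 CPM and CDH19 (Schwann cells) 0.053 CPM. Other markers of these cell types were detected at low levels. Of 3 leukocyte markers tested, CD14 was called higher (means of 1.09 and 7.40 CPM in GM and DM samples) and CD68 lower (5.29 and 2.59 CPM). Of 7 endothelial markers tested, TEK was called higher (1.47 and 4.20 CPM) and 3 were called lower, CDH5, VWF and TIE1. The groups overlapped for CDH5, with 32, 28 and 6 counts in GM samples and 1, 8 and 3 in DM samples. S100B (Schwann cells) had means of 1.32 and 1.62 CPM and was not called. Markers of fibroblasts, tenocytes and pericytes or smooth muscle were present and are given with the results.

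Of the 9 listed genes, 8 had higher levels in every DM sample than in any GM sample, and COL15A1 had lower levels in every DM sample than in any GM sample. COL16A1 rose 11.3-fold, COL8A1 11.2-fold, COL6A6 6.64-fold and COL14A1 3.60-fold. The main type VI chains COL6A1, COL6A2 and COL6A3 and the fibril-associated COL12A1 were higher by 1.56- to 1.88-fold, which did not reach the 2-fold minimum of a call. COL15A1 fell 5.05-fold. Fold changes are DM over GM, except that the size of a fall is given as GM over DM. A call needed a log2 fold change beyond 1 in either direction together with a Benjamini-Hochberg adjusted p-value under 0.05, from the quasi-likelihood test of edgeR over all 15576 genes tested. By this rule 4 of the 9 were called higher, where 15.0% of all tested genes were, and 1 was called lower, where 10.3% were. With no minimum fold change, 8 of the 9 were higher at an adjusted p-value under 0.05, against 31.6% of all tested genes. DM samples all lay above GM samples for 8 of the 9, as for 34.5% of tested genes, and all lay below for 1 of the 9, as for 34.3%. The median log2 fold change was 0.91 over the 9 and 0.03 over all tested genes.

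**Figure D1:**
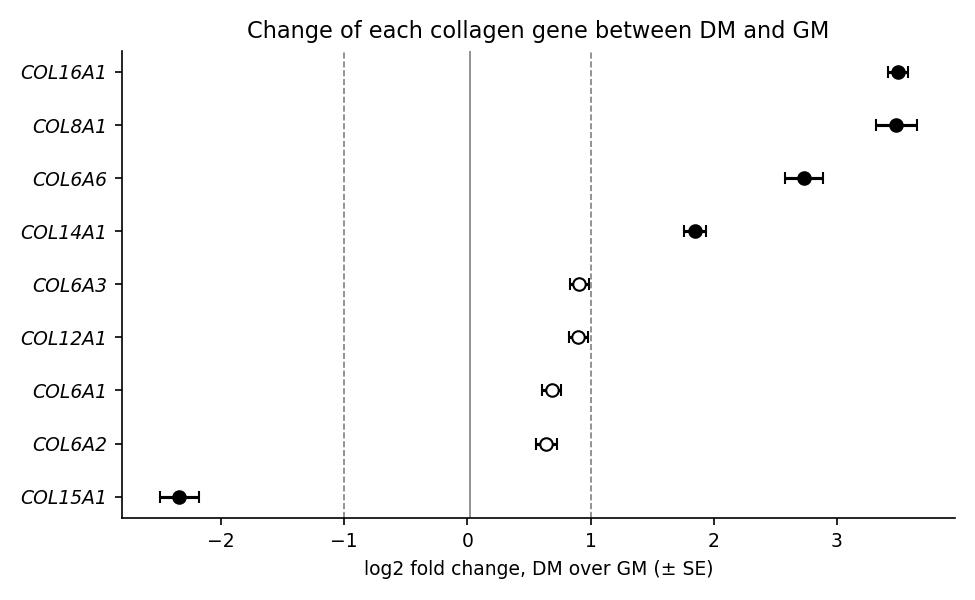
The log2 fold change of DM over GM (x axis, with standard error as bars) is plotted for each of the 9 genes, where filled points were called by edgeR and open points were not, dashed lines mark the fold minimum and the solid line marks the median of all tested genes. The 4 called higher lie to the right of the minimum, from COL14A1 at 1.85 to COL16A1 at 3.50, 4 lie between 0.64 and 0.91, and COL15A1 alone lies to the left, at -2.34.

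In bulk samples such as these, fewer cells of a type and less RNA per cell cannot be told apart. For each marker list below, the shares over all tested genes were 15.0% called higher and 10.3% lower. Among 10 fibroblast markers, 9 were tested and 5 were called higher and none lower. The summed level of the fibroblast markers ranged over 1582 to 1637 CPM for GM and 3836 to 5368 CPM for DM. THY1, FAP, LUM and DCN were called higher, TCF21 was at 0 in every DM sample, and PI16 and CD34 stayed under 1 CPM throughout. DCN and LUM also stand in the list of collagen-binding proteins given further on. All 5 tenocyte markers were tested, of which 2 were called higher and none lower, and their sum ranged over 536 to 591 CPM for GM and 1125 to 1191 CPM for DM. FMOD made up most of it, at means of 551 and 1060 CPM, while SCX and TNMD had means under 1 CPM in both groups. The 2 called were THBS4, with means of 11.1 and 101 CPM in GM and DM samples, and SCX. The call on SCX rests on 4, 1 and 7 counts in GM samples and 27, 12 and 21 in DM samples. Of 8 markers of pericytes and smooth muscle 1 was called higher and none lower, with sums of 1378 to 1583 CPM for GM and 1678 to 2036 CPM for DM, mostly from ACTA2, and RGS5 close to 0. The 1 called was PDGFRB, with means of 69.8 and 239 CPM in GM and DM samples. The sums over adipocyte, endothelial, leukocyte and Schwann cell markers stayed at or under 13.3 CPM in every sample. The part of such cells in the collagen differences was not tested.

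Type VI collagen was the most abundant of these collagens at the RNA level. COL6A1 (ENSBTAG00000011802, chromosome 1, 147404396 to 147423644, plus strand) stood at 2094, 2137 and 2022 CPM in GM replicates 1, 2 and 3 and at 3243, 3051 and 3749 CPM in DM replicates 1, 2 and 3. The lowest DM sample was 1.43 times the highest GM sample. The log2 fold change was 0.68 with a standard error of 0.08 (edgeR, adjusted p = 2.42e-05). COL6A2 (ENSBTAG00000019269, chromosome 1, 147542825 to 147572432, plus strand) stood at 2557, 2517 and 2463 CPM in GM samples and at 3911, 3452 and 4393 CPM in DM samples. It had the smallest change of the 9 genes, a log2 fold change of 0.64 with a standard error of 0.08 (edgeR, adjusted p = 6.04e-05). COL6A1 and COL6A2 are listed next to each other, 119 kb apart on the same strand. Their outer neighbours were PCBP3, which had 11.7 ± 0.630 CPM in GM samples and 13.6 ± 0.864 CPM in DM samples (SD, n = 3 each) and was not called, and FTCD, which had too few counts to be tested.

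COL6A3 (ENSBTAG00000030190, chromosome 3, 117409071 to 117482330, minus strand) encodes the longest and most variable chain of the common unit. Its level was 3191, 3023 and 2917 CPM in GM samples against 5815, 5125 and 6195 CPM in DM samples. The groups were separated by a factor of 1.61 between the nearest samples, and the log2 fold change was 0.91 with a standard error of 0.08 (edgeR, adjusted p = 2.53e-06).

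COL6A6 (ENSBTAG00000012837, chromosome 1, 153323109 to 153438339, minus strand) is an alternative to COL6A3 as the partner of COL6A1 and COL6A2 and was the scarcest of the 9 genes in GM samples. GM samples had 83, 69 and 89 counts and DM samples 442, 514 and 471, that is 1.66 to 2.35 CPM against 12.7 to 14.05 CPM. The groups did not overlap, and the lowest DM sample was 5.42 times the highest GM sample. COL6A6 rose by a log2 fold change of 2.73 with a standard error of 0.16 (edgeR, adjusted p = 1.29e-07). Its fold change was the largest of the 4 type VI chains measured, yet its level reached 1.82 ± 0.0930 RPKM in DM samples against 567 ± 53.8 RPKM for COL6A3 (SD, n = 3). RPKM here are CPM per kilobase of gene length. The next listed gene before it, PIK3R4 on the opposite strand at 2.60 kb, was lower in DM samples (61.5 ± 2.52 against 45.7 ± 2.48 CPM) and not called. On the other side, at 93.4 kb on the same strand, a gene that the table lists by identifier only, ENSBTAG00000021906, was called higher, from 0.709 ± 0.347 to 4.12 ± 2.34 CPM.

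Of the 3 fibril-associated genes 2 were called higher and 1 was not called, with fold changes from 1.87 to 11.3. Over all tested genes 15.0% were called higher. COL12A1 (ENSBTAG00000020056, chromosome 9, 14869511 to 14983763, minus strand) makes type XII collagen, which links fibrils to the surrounding matrix in tendon and muscle fascia. Its level was 728, 639 and 633 CPM in GM samples and 1196, 1180 and 1363 CPM in DM samples. All DM samples lay above all GM samples, with a log2 fold change of 0.90 with a standard error of 0.08 (edgeR, adjusted p = 3.18e-06), below the minimum of a call. COL14A1 (ENSBTAG00000013369, chromosome 14, 83892853 to 84109620, plus strand) makes type XIV collagen, a close relative of type XII that binds decorin. Its level was 125, 116 and 112 CPM in GM samples against 400, 391 and 478 CPM in DM samples. COL14A1 rose by 1.85 on the log2 scale with a standard error of 0.09 (edgeR, adjusted p = 3.55e-08). The nearest samples of the 2 groups differed 3.13-fold. A small nuclear RNA gene on the opposite strand lies inside COL14A1 and had no counts in any sample. DEPTOR, the gene before COL14A1 at 109 kb on the same strand, was called higher, with 0.0489 ± 0.0410 CPM in the GM group against 1.16 ± 0.311 CPM in the DM group (SD, n = 3 each), and MRPL13 after it was not called.

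COL16A1 (ENSBTAG00000010050, chromosome 2, 122557458 to 122611951, plus strand) makes type XVI collagen, which associates with collagen fibrils and with fibrillin microfibrils. Its level was 49.3, 52.6 and 51.1 CPM in GM samples and 615, 596 and 519 CPM in DM samples. GM samples were within 1.07-fold of each other and DM samples within 1.19-fold, while the nearest samples of the 2 groups differed 9.85-fold. COL16A1 had the largest rise of the 9 genes, a log2 fold change of 3.50 with a standard error of 0.08 (edgeR, adjusted p = 6.88e-10). Its neighbours ADGRB2 and PEF1 were not called, with log2 fold changes of 0.73 and -0.29.

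COL8A1 (ENSBTAG00000013662, chromosome 1, 43541936 to 43717619, plus strand) was near the lower end of the levels in GM samples, at 3.01, 2.48 and 3.22 CPM. In DM samples it stood at 28.6, 28.4 and 40.2 CPM, with replicate 3 above both others. The groups did not overlap, and COL8A1 rose by a log2 fold change of 3.48 with a standard error of 0.17 (edgeR, adjusted p = 4.16e-08). COL8A2, whose chain can join that of COL8A1, rose as well, from 4.26 ± 0.331 CPM to 21.3 ± 8.54 CPM. The genes on either side of COL8A1 went the other way. DCBLD2, 739 kb away on the opposite strand, fell by 1.41 on the log2 scale. CMSS1, 12.4 kb away on the same strand, fell by 1.21.

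COL15A1 (ENSBTAG00000010082, chromosome 8, 64437276 to 64540739, plus strand) was the only one of the 9 genes that fell. Its level was 21.8, 21.3 and 19.4 CPM in GM samples and 3.02, 4.75 and 4.57 CPM in DM samples, from 102, 174 and 169 counts. DM replicate 1 was the lowest, and the lowest GM sample was 4.09 times the highest DM sample. The log2 fold change was -2.34 with a standard error of 0.16 (edgeR, adjusted p = 4.50e-07). COL18A1, which makes the other multiplexin collagen of basement membranes, rose by 2.54 on the log2 scale, with means of 22.2 ± 1.10 and 129 ± 37.0 CPM (SD, n = 3 each). The difference between these 2 genes was not tested. Neither neighbour of COL15A1 was called, with log2 fold changes of 0.35 for GALNT12 and 0.21 for TGFBR1.

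Levels were compared between genes per kilobase of length. In GM samples the order was COL6A2 at 587 ± 11.0 RPKM, COL6A1 at 512 ± 14.2, COL6A3 at 302 ± 13.7, COL12A1 at 71.1 ± 5.67, COL14A1 at 21.7 ± 1.23, COL16A1 at 10.2 ± 0.330, COL15A1 at 3.90 ± 0.230, COL8A1 at 0.568 ± 0.0751 and COL6A6 at 0.274 ± 0.0471 RPKM (SD, n = 3). No neighbours in this order had overlapping samples. By mean RPKM over all 24616 listed genes, COL6A2 ranked 143 in GM samples and 93 in DM samples, COL6A1 ranked 164 and 104, and COL6A3 ranked 270 and 149. In DM samples COL6A2 (916 ± 110.1 RPKM) and COL6A1 (823 ± 88.5 RPKM) overlapped, and the other neighbours did not. The overlap was between different samples, and within each DM sample COL6A2 was the higher. COL16A1, at 115 ± 10.2 RPKM in DM samples, then stood above COL14A1 at 78.1 ± 8.81 RPKM and moved from rank 6757 to rank 730 among all genes. COL15A1 went to the last place, at 0.771 ± 0.178 RPKM, below COL8A1 and COL6A6. The order was the same with any of the 6 samples left out. The RPKM values that the authors deposited differ from these only in the scaling of each sample. They cannot reorder genes within a sample, so they are no separate check.

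**Figure D2:**
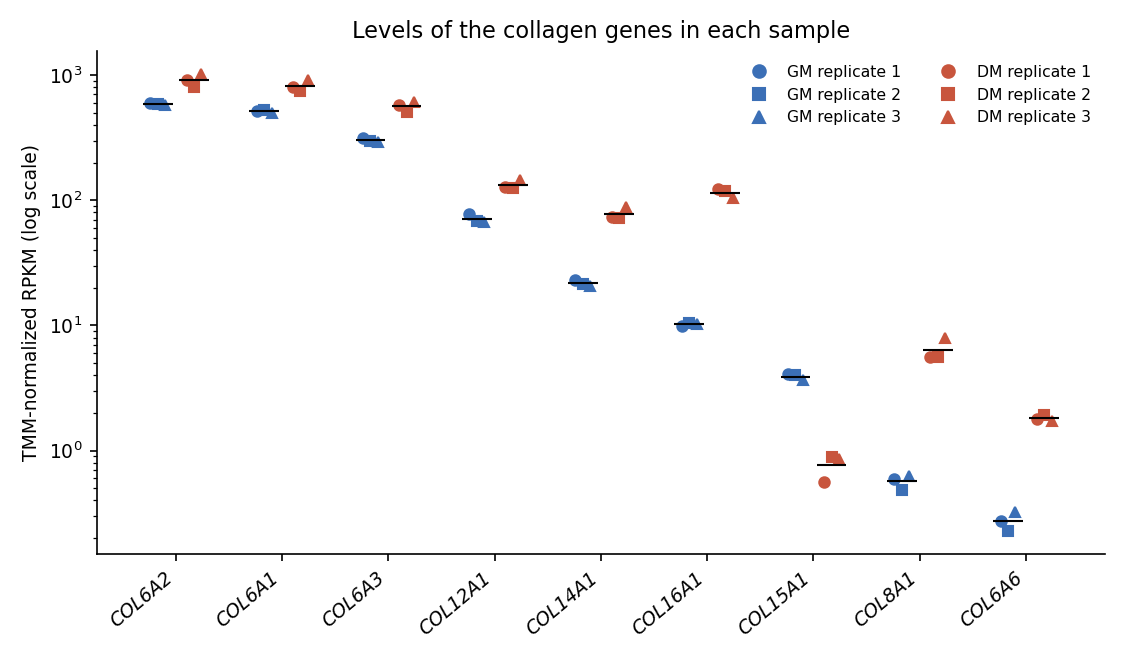
Each point is the TMM-normalized RPKM of one gene in one sample on a log scale, with GM samples in blue and DM samples in red, a marker for each replicate and black lines for group means. The 3 main type VI chains lie at the top in both groups, COL16A1 crosses above COL14A1 in DM samples, and COL15A1 drops below COL8A1 and COL6A6.

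Proportions among the type VI chains, and among the separate fibril-associated types, were compared as ratios of counts per base of length within each sample, which need no scaling between samples. COL6A2 stood to COL6A1 as 1.16, 1.12 and 1.16 in GM samples and as 1.15, 1.08 and 1.11 in DM samples. The groups overlapped, and the log2 difference was -0.04 (exact two-sided permutation p = 0.2, n = 3 per group). COL6A3 stood to COL6A1 as 0.615, 0.571 and 0.582 in GM samples and as 0.724, 0.678 and 0.667 in DM samples. All DM samples were higher, by 0.23 on the log2 scale. COL14A1 stood to COL12A1 as 0.297, 0.315 and 0.306 in GM samples and as 0.580, 0.574 and 0.607 in DM samples, 1.92 times higher. COL16A1 stood to COL12A1 as 0.127, 0.154 and 0.151 in GM samples and as 0.963, 0.945 and 0.712 in DM samples, 6.03 times higher, with DM replicate 3 the lowest of the DM samples. The exact two-sided permutation test gave p = 0.1 for each of these last 3 ratios, which is the lowest value possible with 3 samples per group, and Benjamini-Hochberg adjusted values over the 4 ratios were 0.2 for COL6A2 to COL6A1 and 0.133 for the others (exact test). None could therefore pass 0.05. Among the 3 main type VI chains, COL6A3 made up 21.5 ± 0.534% of counts per base in GM samples and 24.6 ± 0.615% in DM samples (SD, n = 3 each). Among COL12A1, COL14A1 and COL16A1, COL16A1 made up 9.92 ± 0.881% in GM samples and 35.4 ± 4.04% in DM samples, while COL12A1 went from 69.0 ± 1.12% to 40.7 ± 2.09%.

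**Figure D3:**
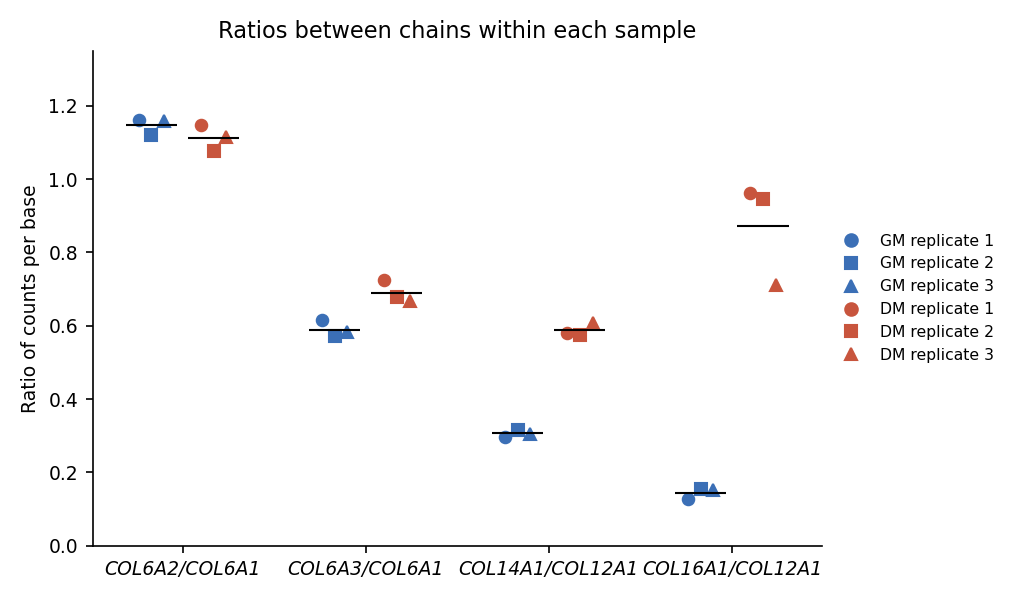
Each point is the ratio of counts per base of 2 collagen genes in one sample, with GM samples in blue, DM samples in red, a marker for each replicate and black lines for group means. COL6A2 to COL6A1 overlaps between groups near 1.1, and the other 3 ratios are higher in all DM samples, with COL16A1 to COL12A1 going from a mean of 0.144 to 0.873.

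The 9 genes together took 0.879 ± 0.0294% of all counts on genes in GM samples, against 1.48 ± 0.135% in DM samples (SD, n = 3 each), a ratio of 1.68. The widest 95% Wilson interval of a single sample reached 0.004 percentage points to either side, which covers counting error only. The 40 collagen genes listed by symbol went from 5.30 ± 0.0706% to 13.6 ± 0.996% of counts. Type VI chains took 15.1, 15.1 and 14.6% of the collagen counts in the GM samples, against 8.49, 8.27 and 11.1% in DM replicates 1, 2 and 3. All DM samples were below all GM samples, with DM replicate 3 nearest to them, and no test was run on these shares. The 10 listed fibrillar collagen genes ranged from 80.7 to 81.4% of collagen counts over GM samples and from 82.9 to 87.3% over DM samples. COL12A1, COL14A1 and COL16A1 together took 1.63 ± 0.0946% and 1.60 ± 0.197% of collagen counts in GM and DM samples, and the groups overlapped. Per base of length, these 3 genes took 0.981 ± 0.0527% and 1.12 ± 0.128% in GM and DM samples, with overlapping groups, and type VI chains lay at 13.4 ± 0.244% over the GM and 7.97 ± 1.44% over the DM samples.

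**Figure D4:**
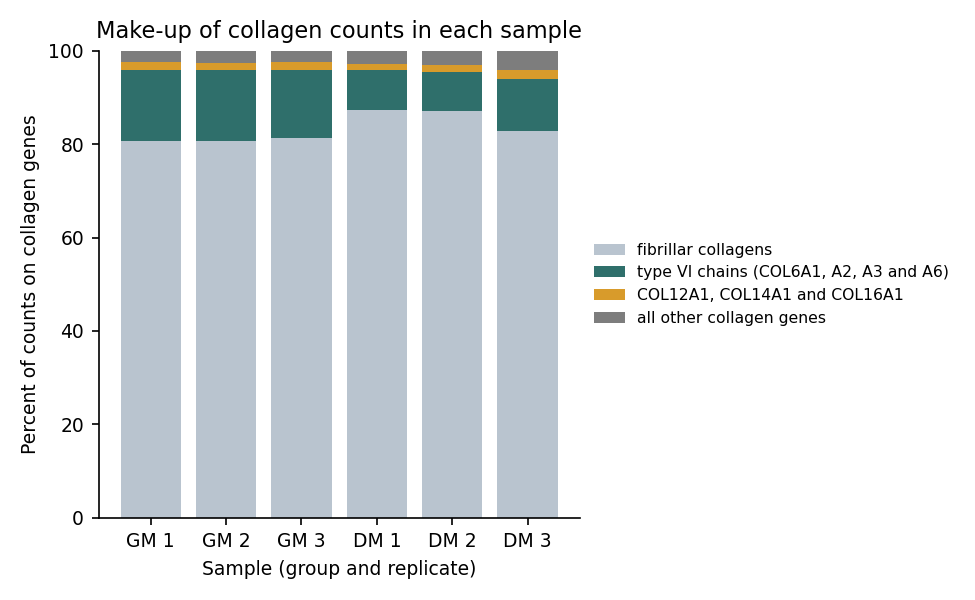
Stacked bars give the percent of counts on the 40 listed collagen genes taken by fibrillar collagens, type VI chains, the 3 fibril-associated genes and all other collagen genes in each sample. Type VI chains take 14.6 to 15.1% of the GM bars and 8.27 to 11.1% of the DM bars.

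The DM samples differed among themselves in a way that divided these genes. DM replicate 3 was the highest DM sample for 6 of the 9 genes, COL6A1, COL6A2, COL6A3, COL8A1, COL12A1 and COL14A1, by 1.13 to 1.41 times the mean of the other DM samples. It was the lowest for COL6A6 and COL16A1, at 0.938 and 0.856 times that mean, and lay between the others for COL15A1. Over all genes this sample also stood apart, since its counts differed from those of DM replicates 1 and 2 by a chi-square of 43.3 and 42.5 times its degrees of freedom, where those 2 samples differed from each other by 12.2 times. The summed CPM of fibrillar collagens was lowest in DM replicate 3, at 107237 CPM against 122720 and 133452 CPM. Among these genes 7 of 10 were lowest there, COL1A1, COL1A2 and COL3A1 included, while COL5A3, COL2A1 and COL27A1 were highest. The sum of fibroblast markers was lowest as well, at 3836 CPM against 5138 and 5368 CPM. It followed DCN, at 1614 CPM against 2734 and 2584 CPM, and PDGFRA, while DPT and PI16 were highest in DM replicate 3 and THY1 and FAP lay between the other samples. The sum of myogenic markers was highest, at 8015 CPM against 5600 and 6132 CPM. It was mostly MYH3, ACTC1 and DES, while PAX7, MYOD1 and MYOG were lowest in DM replicate 3. The part of cell make-up in these differences was not tested. Without DM replicate 3 all calls on the 9 genes held, and the log2 fold changes of COL6A1, COL6A2 and COL6A3 were 0.60, 0.56 and 0.85.

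**Figure D5:**
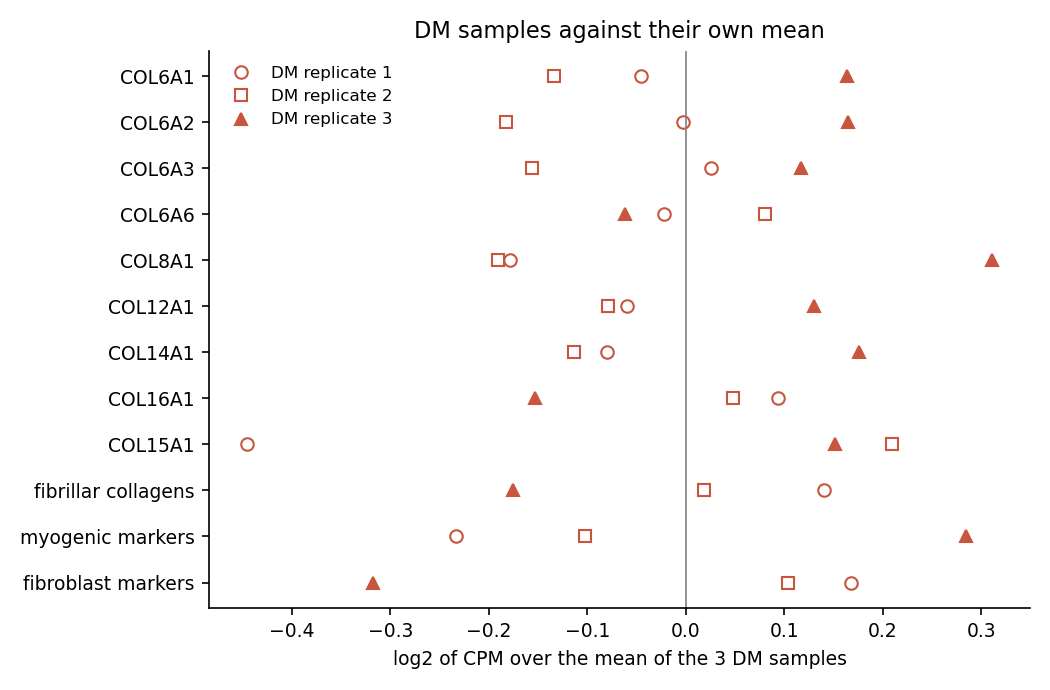
The log2 of CPM in each DM sample over the mean of the 3 DM samples is plotted for the 9 genes and for the summed CPM of fibrillar collagens, myogenic markers and fibroblast markers, with DM replicate 3 filled. DM replicate 3 is to the right of the other samples for 6 genes and for myogenic markers, and to the left for COL6A6, COL16A1, fibrillar collagens and fibroblast markers.

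The mRNA table lists 14 transcripts of the 9 genes, and 16352 mRNAs were tested in the same way. For 6 genes a single transcript is listed, with the same counts as the gene. COL6A2 and COL6A3 have 3 transcripts each and COL16A1 has 2. Reads shared between transcripts were counted on each of them, since the transcript counts of COL6A2 add up to 1.93 times its gene count, so these are not independent measurements. Of the 14 transcripts 5 were called higher (15.5% of all tested mRNAs were) and 1 lower (10.1% were). The log2 fold changes of the transcripts of one gene differed little, from 0.60 to 0.64 for COL6A2, from 0.84 to 0.89 for COL6A3 and by 0.0029 for COL16A1. No transcript of COL6A1, COL6A2, COL6A3 or COL12A1 was called.

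Of 26 genes for proteins that bind these collagens or serve as their receptors, 23 could be tested. Among these 6 were called higher, 4 lower and 13 were not called, with a median log2 fold change of 0.46 against 0.03 for all tested genes. The shares over all tested genes were 15.0% higher and 10.3% lower. Those of highest level were FN1 (fibronectin), which rose by a log2 fold change of 1.97, DCN (decorin, a proteoglycan of collagen fibrils), which rose by 2.37, and BGN (biglycan, a proteoglycan that binds type VI collagen), which was higher by 0.86 and not called. NID1 (nidogen, a basement membrane linker) and MATN3 (a matrilin) had the largest called changes of the list, 2.81 and -2.69. ANTXR1, ANTXR2 and CSPG4 were named after their values were seen, as receptors of type VI collagen or its fragments. ANTXR1 rose from 43.8 ± 0.613 to 109 ± 6.97 CPM (SD, n = 3 each), ANTXR2 stood at 135 ± 9.69 and 179 ± 6.29 CPM and was not called, and CSPG4 stood at 63.9 ± 2.73 CPM in GM samples and at 58.5, 53.6 and 147 CPM in DM replicates 1, 2 and 3 and was not called.

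Genes for the folding, modification and secretion of collagen chains mostly kept to less than a 2-fold difference. Of 27, 26 were tested, none was called higher, 2 were called lower and 24 were not called, with a median log2 fold change of 0.12. Of all tested genes 15.0% were called higher and 10.3% lower, so most genes of any kind were not called. SERPINH1, the collagen chaperone, stood at 3572 ± 51.9 CPM in GM samples and 3026 ± 291 CPM in DM samples, and P4HB, a subunit of prolyl hydroxylase, at 2179 ± 42.6 and 1742 ± 165 CPM. PPIB, a prolyl isomerase, stood at 522 ± 19.0 and 565 ± 34.6 CPM. The genes called lower were P3H2, a prolyl hydroxylase, and COLGALT2, a collagen galactosyltransferase, which fell by 5.01 and 1.96 on the log2 scale.

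For the processing, crosslinking and breakdown of collagen 24 of 27 genes were tested, of which 7 were called higher, 4 lower and 13 not called, with a median log2 fold change of 0.61. The shares over all tested genes were 15.0% higher and 10.3% lower. MMP2, a gelatinase, rose by a log2 fold change of 2.14 and LOXL2, a crosslinking oxidase, rose by 1.66, while TIMP1, an inhibitor of matrix proteases, was higher by 0.70 and not called. MMP13, a collagenase, had the largest rise, from 0.216 ± 0.0833 to 8.10 ± 6.10 CPM (SD, n = 3 each), and PCOLCE2 fell by 3.16 on the log2 scale.

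Among the other nonfibrillar collagens, 17 of 24 were tested, with 8 called higher, 2 lower and 7 not called and a median of 1.16. For this list and the fibrillar one below, the shares over all tested genes were 15.0% higher and 10.3% lower. COL4A1 and COL4A2, the main basement membrane chains, rose by log2 fold changes of 1.91 and 1.77. COL9A2, another fibril-associated collagen, fell by 2.96 on the log2 scale and COL25A1, a transmembrane collagen, was called higher, with a log2 fold change of 4.89. Both had less than 1 CPM in every sample, and COL25A1 had 1, 0 and 0 counts in GM samples and 1, 8 and 28 counts in DM samples, so its fold change is not well determined. Of the 10 listed fibrillar collagens all were tested, 8 were called higher, 1 lower and 1 was not called, with a median of 1.36. COL1A1, COL1A2 and COL3A1 rose by 1.54, 1.13 and 2.24, COL5A3 rose most, by 4.74, and COL11A2 rose by 2.38 from means of 0.337 to 1.77 CPM. No difference between these lists and the 9 genes was tested.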

How the data were processed

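Muscle stem cells were sequenced by PolyA-Seq as 3 GM and 3 DM samples. The deposited count columns hold raw counts per gene or mRNA. The paper describes alignment with HISAT2, whose version is not given in the sources used here. Which aligner and genome gave the deposited counts is not settled by these sources. The paper names a buffalo genome, the tables list cattle Ensembl identifiers, and the labels' processing notes name Bowtie 0.12.2 and mouse builds, so coordinates are printed as the tables give them, with no build. The deposited RPKM columns equal the counts divided by gene length and total counts. Columns of the authors' own comparisons (fold changes, p-values) and the ncRNA table were not used. No reference sequence was used.

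Differences in counts were tested by edgeR 4.0.16 under R 4.3.3 (TMM scaling, glmQLFit and glmQLFTest, Benjamini-Hochberg over all features tested), leaving out features under 10 counts summed over samples; standard errors come from the F statistic. The pipeline was tested on simulated data. CPM and RPKM were scaled by TMM library sizes, with pandas 2.3.3 and scipy 1.17.1. Alternatives were DESeq2 1.42.0, other scalings and filters, a replicate block and each sample left out. The 10 genes and the lists were chosen with earlier results of these data known. Of each pathway list, the 3 tested genes of highest mean RPKM and the 2 called genes of largest change are named, besides listed neighbours of the 9 genes and marker genes; COL8A2, LUM, THY1, FAP and those so marked were named after their values were seen. No replicates were duplicates of each other: chi-square over its degrees of freedom ran from 6.43 to 11.0 for pairs of GM samples, and for DM pairs it was 12.2 without replicate 3 and 42.5 and 43.3 with it. COL2A1 and COL27A1 were also named after their values were seen.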

Additional observations from a re-analysis of the deposited data

How the results depend on the processing

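Calls on the 9 genes were recomputed under 16 alternatives, which gave 141 values, and on their 14 transcripts under 12, which gave 168. No log2 fold change changed sign. For the transcripts all 168 values kept their side of the threshold, and for the genes 137 of 141 did. The other 4 were COL6A1, COL6A2, COL6A3 and COL12A1, which passed with no minimum fold change. By that rule 8 of the 9 were higher, as were 31.6% of all tested genes. In both directions together it called 9813 genes, against 3936. Under the study's own rule for reliable expression (over 50% of samples reaching 1 RPKM) 2 of the 9 genes were called higher and 0 lower. COL6A6, COL8A1 and COL15A1 reach that level in a single group and were then not tested. In both directions together 2197 genes were called, but fewer genes were tested, so this is not a share of the same total as 3936. A test against a 2-fold change called 2293 genes and kept the 4 higher and 1 lower of the 9. With each sample left out, COL15A1 ranged from -2.44 to -2.15 and COL6A2 from 0.56 to 0.74 on the log2 scale. Scaled by library size without TMM, 50.3% of called mRNAs were higher in DM samples, against 60.5%, and the median log2 fold change of all mRNAs was -0.12. Same-numbered GM and DM samples shared little of their deviations from the group means (correlations from -0.0537 to -0.00628). A small shared effect would look the same, so whether the samples were paired is not known. The fit with the replicate number as a block called 4 of the 9 higher and 1 lower, as before, and 3837 genes in all. The ratios of COL6A2, COL6A3, COL14A1 and COL16A1 kept their direction with each sample left out. They also did with the mRNA table, which counts the same reads and so is no separate check. Depth limits the precision of COL6A6 in GM samples, with 69 to 89 counts, and with 3 samples per group the exact permutation test of a ratio cannot go below p = 0.1.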
